A study of Mus musculus with 3 samples.

Results

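The genes described here are 32 mouse genes of cholesterol and fatty acid synthesis, picked by name and found in the gene tables through their Entrez numbers, out of 17997 genes listed in any library. They fall into 18 enzymes that build sterols from acetyl-CoA, 8 enzymes that make and modify fatty acids, and 6 genes for regulators and for sterol transport. All 32 were listed in every library, between 3.48 and 150.58 FPKM (fragment counts scaled by gene length and by library size), and none fell under 87 expected reads. RNA-seq of total RNA was done on 46C cells, a strain 129 mouse embryonic stem cell line with a fluorescent reporter at the Sox1 locus, grown on gelatin in serum with leukemia inhibitory factor (LIF). One culture had received the empty vector (PB) and was taken at passage 2 (the control), and cultures that had received Lef1 (PB-Lef1) were taken at passage 2 (Lef1 P2) and passage 5 (Lef1 P5). Lef1 binds DNA and works with beta-catenin when Wnt signals. The sources used here do not give the promoter that drives Lef1 or say whether the cultures were clones or pools. An empty-vector library of passage 5 was not analysed here. The empty-vector library is called the control in what follows.

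Cells make cholesterol from acetyl-CoA through mevalonate, farnesyl diphosphate and squalene, and they make saturated fatty acids from the same precursor before lengthening and desaturating them. Most of these enzymes are transcribed under the control of the SREBP factors, encoded by Srebf1 and Srebf2, which are held in the endoplasmic reticulum by the Insig proteins when sterols are plentiful and are escorted to the Golgi by Scap when sterols are scarce. SREBP-2 acts mainly on sterol genes and SREBP-1 mainly on fatty acid genes, and Insig1 is itself an SREBP target. In embryonic cells, sterols also serve as the modification of Hedgehog proteins, and several enzymes of the late sterol steps are known from malformation syndromes.

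Each group has n = 1 library, so no test between conditions was possible and no p-value is given. The libraries held 9225401 (control), 9170554 (Lef1 P2) and 9380813 (Lef1 P5) expected reads. A ratio was log2((x + 1)/(y + 1)) of the FPKM values, and a gene was called higher or lower at 2-fold on that scale when it reached 3 FPKM and 20 expected reads in the higher library. A weaker 1.5-fold call used the same minimums. Folds are plain ratios of FPKM, and brackets hold 95% counting intervals, which cover neither the difference between cultures nor amplification. Lef1 itself was at 1.49 FPKM in the control, 135 FPKM in Lef1 P2 and 214 FPKM in Lef1 P5, so the levels follow the labels. The median log2 ratio of all 12894 genes that reached 1 FPKM was 0.11 for Lef1 P2 against the control, -0.02 for Lef1 P5 against the control and -0.17 for Lef1 P5 against Lef1 P2. Rescaling moved the first of these by -0.14 (median-of-ratios, TMM and quantile scaling alike) and the last by 0.18, 0.16 and 0.17, so small differences are read relative to those medians.

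The upstream sequences are shown for 5 genes because SREBP acts together with NF-Y and Sp1 at such promoters. In the RefSeq promoter table of GRCm38.p6, 25 of the 32 genes had an entry, with 33 start sites, and the 250 bases before each start were read on both strands. Fdps, Fdft1, Sqle, Stard4, Scd1, Scd2 and Fads1 had no entry. Capitals mark matches to the sterol regulatory element TCACNCCAC, the NF-Y box CCAAT, the Sp1 box GGGCGG and the E-box CACGTG, each also as its reverse complement, and 1 pair of CCAAT matches shares bases in Fasn. The genes are Hmgcs1 (the 1 gene of the 25 with a match to TCACNCCAC), Cyp51 (the sterol enzyme with the largest difference between the Lef1 libraries), Insig1 and Srebf2 (regulators), and Fasn (lower in Lef1 P2). Only these exact letters were sought, so other forms of the sterol element are not covered. They were chosen after their values were seen.
Hmgcs1, chr13:119690101-119690350, plus strand: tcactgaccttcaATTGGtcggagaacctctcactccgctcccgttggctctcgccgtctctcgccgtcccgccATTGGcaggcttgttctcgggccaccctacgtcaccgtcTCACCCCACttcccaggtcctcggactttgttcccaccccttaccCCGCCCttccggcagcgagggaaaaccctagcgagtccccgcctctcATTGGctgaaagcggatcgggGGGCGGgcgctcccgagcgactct
Cyp51, chr5:4104698-4104947, minus strand: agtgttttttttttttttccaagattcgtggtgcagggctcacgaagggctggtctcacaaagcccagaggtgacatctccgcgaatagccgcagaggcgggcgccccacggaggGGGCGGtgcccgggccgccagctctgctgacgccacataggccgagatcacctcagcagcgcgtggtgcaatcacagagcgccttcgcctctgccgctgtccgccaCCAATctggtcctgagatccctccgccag
Insig1, chr5:28071162-28071411, plus strand: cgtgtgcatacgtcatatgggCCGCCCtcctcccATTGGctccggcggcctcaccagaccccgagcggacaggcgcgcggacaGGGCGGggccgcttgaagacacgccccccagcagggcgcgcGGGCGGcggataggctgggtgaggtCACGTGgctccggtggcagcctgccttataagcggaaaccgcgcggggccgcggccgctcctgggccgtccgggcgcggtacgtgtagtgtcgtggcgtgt
Srebf2, chr15:82147019-82147268, plus strand: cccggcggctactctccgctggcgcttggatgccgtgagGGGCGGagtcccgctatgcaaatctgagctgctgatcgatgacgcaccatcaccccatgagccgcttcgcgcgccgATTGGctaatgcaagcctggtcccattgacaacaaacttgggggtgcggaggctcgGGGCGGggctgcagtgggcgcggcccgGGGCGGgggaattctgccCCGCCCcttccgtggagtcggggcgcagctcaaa
Fasn, chr11:120824548-120824797, minus strand: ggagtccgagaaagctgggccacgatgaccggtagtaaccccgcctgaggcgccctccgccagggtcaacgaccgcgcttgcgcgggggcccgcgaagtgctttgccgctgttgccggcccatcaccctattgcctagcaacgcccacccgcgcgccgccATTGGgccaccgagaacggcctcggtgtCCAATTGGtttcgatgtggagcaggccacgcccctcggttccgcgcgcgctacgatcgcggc

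The TCACNCCAC match of Hmgcs1 spans bases 137 to 129 before its start, between a CCAAT match at 176 to 172 and a GC box at 92 to 87. The letters TCACNCCAC occur upstream of 1.05% of all 32851 start sites in the table and of 1.03% of the 13081 sites of genes that reached 1 FPKM here. CCAAT was found at 20 of the 33 member sites (60.6%), against 33.8% of all sites and 35.7% of sites of measured genes. GGGCGG was found at 24 of 33 (72.7%), against 32.7% and 58.2%, and CACGTG at 5 of 33 (15.2%), in Dhcr7, Hsd17b7, Insig1, Sc5d and Scap, against 6.02% and 8.42%. Start sites of 1 gene can lie close together, as for Scap, and such windows share bases. A match describes letters in this window and is not a binding site.

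The sterol enzymes were a little higher in Lef1 P2 than in the control, with 17 of 18 above it, where 57.6% of all genes were above and 42.4% below. With median-of-ratios, TMM or quantile scaling the count was 15 of 18. In Lef1 P5 6 of 18 were above the control and 12 below. No sterol enzyme was called at 2-fold in any of the 3 comparisons. Among all 10651 genes above the minimums, 6.49% were called 2-fold higher and 1.82% lower in Lef1 P2 against the control. The median log2 ratio of the 18 enzymes was 0.36 in this comparison, and 0.20 with median-of-ratios and 0.21 with TMM scaling. It lay 0.24 above the median of all genes as deposited and 0.23 above it with either of those scalings, and 15 of 18 enzymes lay above that median under each. The counting interval of the ratio lay above 1 for 14 enzymes and below 1 for Idi1, while 41% of all genes had an interval above 1 and 27.2% below. The 1.5-fold call took in 4 enzymes (Pmvk, Mvd, Cyp51 and Ebp) as higher and 0 as lower, beside 17.5% and 8.03% of all genes, so at that size the share was near the background. With genes limited to the members' range of mean level, 4.23 to 139 FPKM, 56.4% were higher at any size and 15.2% at 1.5-fold.

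**Figure D1:**
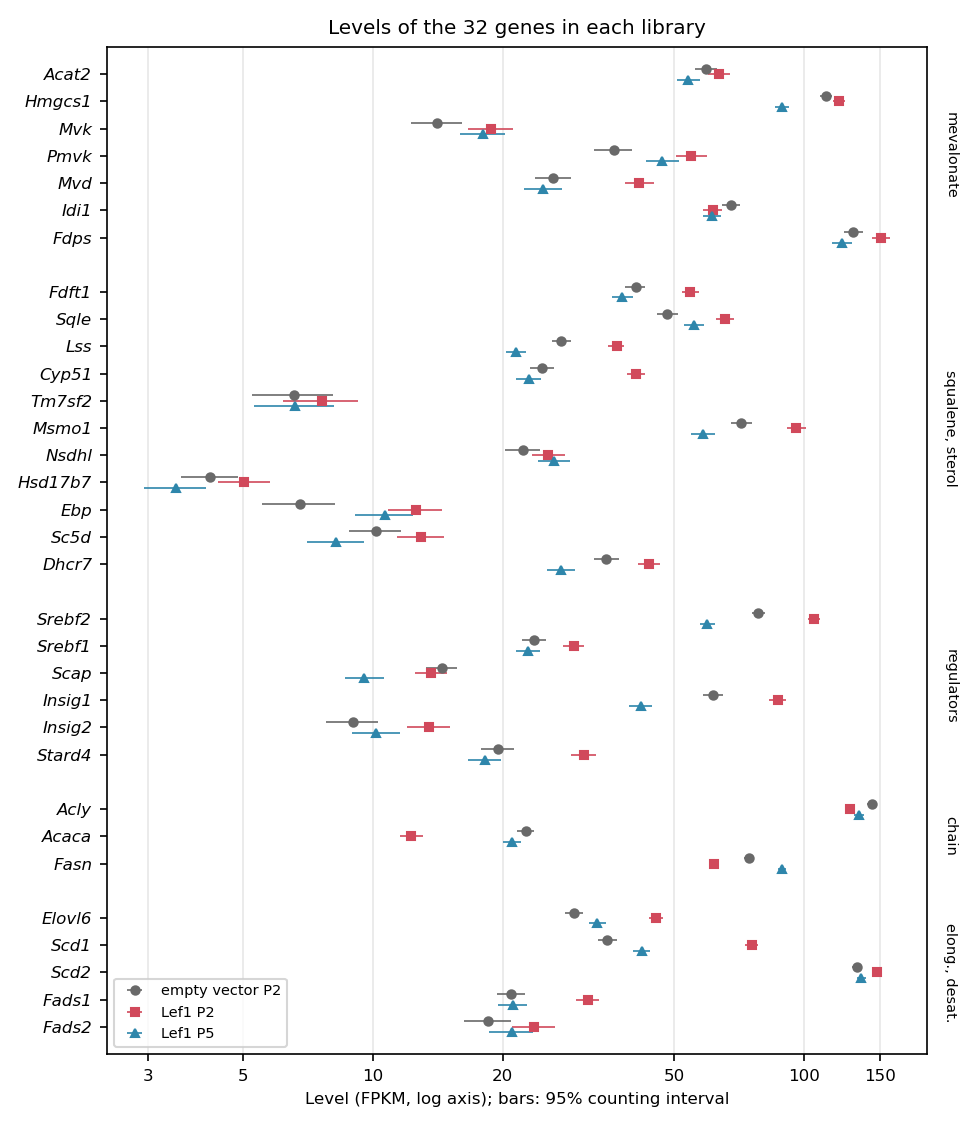
Level of each of the 32 genes (FPKM, log axis) in empty vector P2 (circles), Lef1 P2 (squares) and Lef1 P5 (triangles), 1 library each, with 95% counting intervals as bars. Most sterol enzymes and regulators have the square to the right of both other symbols, and Acaca, Fasn and Acly have it to the left.

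The 7 genes from acetyl-CoA to farnesyl diphosphate summed to 446 FPKM in the control, 511 FPKM in Lef1 P2 and 416 FPKM in Lef1 P5. Acat2, the cytosolic thiolase that joins acetyl-CoA units, was at 59.3 FPKM in the control, 63.6 in Lef1 P2 and 53.9 in Lef1 P5. Hmgcs1, the synthase that makes HMG-CoA, was at 113, 120.3 and 89.0 FPKM in the same order. For both genes Lef1 P2 lay close to the control (1.07-fold, 0.987 to 1.16, and 1.07-fold, 1.02 to 1.12), and the sign turned with median-of-ratios and TMM scaling. Hmgcs1 was the member of this stretch with the lowest Lef1 P5 level relative to the control, at 0.79 of it (0.752 to 0.83).

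The kinases and the decarboxylase that convert mevalonate to isopentenyl diphosphate showed larger ratios. Mvk, mevalonate kinase, was at 14.1 FPKM in the control, 18.8 in Lef1 P2 and 18.0 in Lef1 P5. Pmvk, phosphomevalonate kinase, was at 36.1, 54.8 and 46.9 FPKM, 1.52-fold (1.33 to 1.73) and 1.30-fold (1.14 to 1.49) the control level. Both kinase genes therefore had their lowest value in the control, with ratio intervals above 1 for either Lef1 library. Mvd, the decarboxylase, was at 26.2 FPKM in the control, 41.5 in Lef1 P2 and 24.8 in Lef1 P5. It was 1.59-fold higher in Lef1 P2 (1.40 to 1.80) and at 0.949 of the control level in Lef1 P5 (0.825 to 1.09). Downstream of it, Idi1, the isomerase of isopentenyl diphosphate, ran the other way, with 67.7 FPKM in the control and 61.4 and 61.1 FPKM in Lef1 P2 and Lef1 P5. Fdps, the farnesyl diphosphate synthase and the sterol enzyme with the highest level in each library, was at 130.2, 151 and 122 FPKM.

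The 11 enzymes from squalene to cholesterol were all higher in Lef1 P2 than in the control as deposited (Tm7sf2 and Hsd17b7 were not with quantile scaling), with log2 ratios from 0.19 to 0.80 and a median of 0.41. Their sum was 297 FPKM in the control, 401 in Lef1 P2 and 279 in Lef1 P5, so the Lef1 P2 sum was 1.35 times that of the control, against 1.15 times for the mevalonate stretch. The intervals of Tm7sf2 (0.862 to 1.56) and Hsd17b7 (0.975 to 1.47) included 1. They are also the genes with the lowest levels of the branch: Tm7sf2, a sterol reductase, was at 6.55, 7.60 and 6.58 FPKM in the control, Lef1 P2 and Lef1 P5. Hsd17b7, a ketosteroid reductase of sterol demethylation, was at 4.19, 5.02 and 3.48 FPKM. The span of Tm7sf2 overlaps that of Vps51 in the RefSeq table, and Vps51 was at the higher level of the pair (9.09, 12.2 and 8.10 FPKM), so reads counted without strand could fall to either.

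Squalene is made by Fdft1, oxidised by Sqle and closed into the sterol ring by Lss. Fdft1 was at 40.6 FPKM in the control, 54.4 in Lef1 P2 and 37.9 in Lef1 P5. Sqle was at 48.2, 65.6 and 55.5 FPKM in the same order. Lss was at 27.4, 36.7 and 21.5 FPKM. The 3 genes had nearly the same ratio in Lef1 P2, 1.34-fold for Fdft1 (1.25 to 1.44), 1.36-fold for Sqle (1.26 to 1.47) and 1.34-fold for Lss (1.26 to 1.43), and spread apart in Lef1 P5, where Sqle stayed above the control level (1.15-fold, 1.07 to 1.24) and Lss lay below it (0.785, 0.728 to 0.845). In the RefSeq table the span of Fdft1 overlaps that of Ctsb (29.8, 52.6 and 32.9 FPKM), and the sources used here do not say whether the counting used strand.

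Cyp51, the demethylase that acts first on lanosterol, was at 24.7 FPKM in the control, 40.7 in Lef1 P2 and 22.9 in Lef1 P5. It was 1.65-fold higher in Lef1 P2 (1.52 to 1.79) and at 0.93 of the control in Lef1 P5 (0.849 to 1.02). Msmo1, a methyl sterol oxidase, was at 71.6, 95.9 and 58.4 FPKM, and Nsdhl, the dehydrogenase of the same demethylation, at 22.3, 25.5 and 26.3 FPKM. Nsdhl was the sterol enzyme with its highest level in Lef1 P5, by a margin within counting error of Lef1 P2 (1.03-fold, 0.912 to 1.17). Ebp, the isomerase that follows, was at 6.76 FPKM in the control, 12.6 in Lef1 P2 and 10.6 in Lef1 P5. Its ratios of 1.86-fold (1.46 to 2.37) and 1.57-fold (1.23 to 2.03) were the highest of the branch against the control in either Lef1 library, at 106 to 195 expected reads.

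The closing steps belong to Sc5d, a desaturase, and Dhcr7, the reductase that yields cholesterol. Sc5d was at 10.1 FPKM in the control, 12.9 in Lef1 P2 and 8.20 in Lef1 P5. Dhcr7 was at 34.8, 43.7 and 27.3 FPKM. Both genes thus stood above the control level in Lef1 P2 (1.27-fold, 1.06 to 1.54, and 1.26-fold, 1.15 to 1.37) and below it in Lef1 P5 (0.809, 0.656 to 0.997, and 0.785, 0.711 to 0.867). The control was of passage 2 in either ratio.

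**Figure D2:**
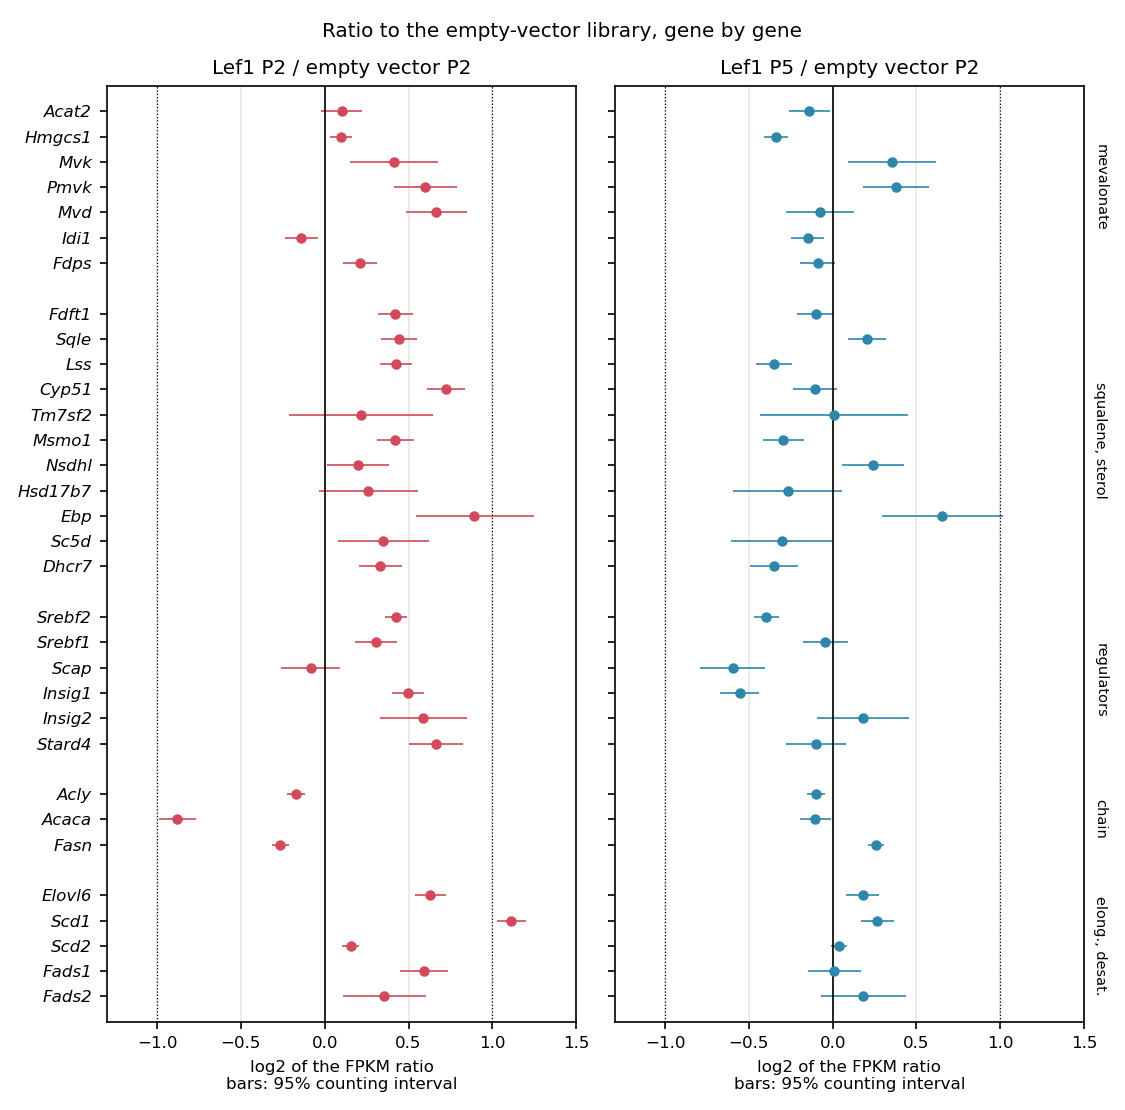
log2 of the plain FPKM ratio of Lef1 P2 (left) and Lef1 P5 (right) to empty vector P2 for each gene, with 95% counting intervals as bars and dotted lines at 2-fold. On the left, 17 of 18 sterol enzymes lie right of 0 (15 of 18 after median-of-ratios, TMM or quantile scaling) and Scd1 passes the 2-fold line, and on the right 12 of 18 sterol enzymes lie left of 0. Both panels use the same empty-vector library.

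In Lef1 P5 against the control, passage and the introduced gene cannot be told apart. The sterol enzymes had a median log2 ratio of -0.10, 0.08 below that of all genes, with 6 above 0 and 12 below, where 47.3% of all 10121 genes above the minimums were higher and 52.6% lower. Intervals lay above 1 for 5 enzymes and below 1 for 7, beside 23.1% and 28% of all genes. Only Ebp passed 1.5-fold, as 4.31% of all genes did upward, and 2-fold calls took in 1.4% upward and 1.28% downward. In Lef1 P5 against Lef1 P2, which shares a library with each of the other comparisons, 17 of 18 enzymes were lower, and 61% of all 10593 genes were lower and 38.9% higher. With median-of-ratios, TMM or quantile scaling 15 of 18 were lower. The median was -0.36, 0.19 below that of all genes, and it was -0.16 with median-of-ratios and -0.18 with TMM scaling, each 0.17 below all genes. Intervals lay below 1 for 13 enzymes, against 45% of all genes with an interval below 1 and 25.8% above, and 6 (Mvd, Lss, Cyp51, Msmo1, Sc5d and Dhcr7) were lower at 1.5-fold, against 20% of all genes. At 2-fold, 6.86% of all genes were lower and 1.88% higher, and 0 of the 18 enzymes were called. Cyp51 had the lowest ratio of the branch, at 0.564 of its Lef1 P2 level (0.519 to 0.611).

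Lef1 P2 was the library with the highest level for 16 of 18 sterol enzymes, against 49.7% of 10731 genes that passed the minimums in some library. With TMM scaling the count was 13 of 18 against 36.8%. The full order Lef1 P2, then the control, then Lef1 P5 was shown by 11 of 18 enzymes and 26.7% of genes, and with TMM scaling by 9 of 18 and 18.7%. With median-of-ratios scaling, 13 and 9 of the 18 showed these patterns, against 36.0% and 17.5% of genes. Among the regulators 5 of 6 were highest in Lef1 P2, also with TMM scaling, and 4 of 6 showed the full order. Among the fatty acid genes 5 of 8 were highest in Lef1 P2, and 3 of 8 with TMM scaling, and 0 of 8 showed the full order.

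Of the 6 regulator and transport genes, 5 were higher in Lef1 P2 than in the control, where 57.6% of all genes were higher, and all 6 were lower in Lef1 P5 than in Lef1 P2, where 61% of all genes were lower. Srebf2 (Entrez 20788), which encodes SREBP-2, was at 78.4 FPKM (75.7 to 81.1) in the control, 105 FPKM (102 to 109) in Lef1 P2, with Lef1 P5 at 59.6 FPKM (57.3 to 62.0). These intervals do not overlap, and the level was 1.34-fold that of the control in Lef1 P2 and 0.76 of it in Lef1 P5. Insig1 (Entrez 231070) was at 61.5 FPKM (58.4 to 64.7) in the control, 86.8 FPKM (83.1 to 90.6) in Lef1 P2, with Lef1 P5 at 41.8 FPKM (39.3 to 44.5), again without overlap. In Lef1 P5 it was at 0.482 of its Lef1 P2 level (0.447 to 0.52), a log2 ratio of -1.04, the one 2-fold call among the sterol enzymes and regulators. That call was not reached with median-of-ratios scaling (-0.83), TMM scaling (-0.86) or a pseudocount of 5 FPKM (-0.97), and Insig1 stayed lower under each. Among all genes, 6.86% were called 2-fold lower and 1.88% higher in Lef1 P5 against Lef1 P2, so 1 call among these genes was near the background.

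Insig2, the second Insig gene, was at 8.96, 13.5 and 10.2 FPKM in the control, Lef1 P2 and Lef1 P5. Insig1 was therefore at 6.86 times the level of Insig2 in the control (5.94 to 7.96), 6.44 times in Lef1 P2 (5.71 to 7.29) and 4.12 times in Lef1 P5 (3.57 to 4.76), per length of transcript. Srebf1, whose SREBP-1a and SREBP-1c forms are not separated in a gene table, was at 23.6, 29.2 and 22.9 FPKM. Srebf2 exceeded it 3.32-fold, 3.61-fold and 2.60-fold in the same order, so the lowest ratio was again that of Lef1 P5. The span of Srebf1 overlaps that of Rai1 (2.25, 3.79 and 1.44 FPKM), and reads without strand could fall to either.

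Scap, the escort protein, was the regulator that did not share the passage 2 difference, with 14.4 FPKM in the control and 13.6 in Lef1 P2 (0.945, 0.836 to 1.07). In Lef1 P5 it was at 9.55 FPKM, 0.662 of the control level (0.579 to 0.756). Stard4, a carrier that moves sterols between membranes, was at 19.5, 30.8 and 18.2 FPKM, 1.58-fold higher in Lef1 P2 than in the control (1.42 to 1.77) and at 0.589 of the Lef1 P2 level in Lef1 P5 (0.526 to 0.659). Of the 6 regulator and transport genes, 1 passed 1.5-fold upward in Lef1 P2 against the control (Stard4), a share near the 17.5% of all genes. Downward, 3 of the 6 passed it in Lef1 P5 against Lef1 P2 (Srebf2, Insig1 and Stard4), beside 20% of all genes. Their median log2 ratio was 0.46 in the first of these comparisons and -0.60 in the second. Their summed level was 206 FPKM in the control, 279 in Lef1 P2 and 162 in Lef1 P5.

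**Figure D3:**
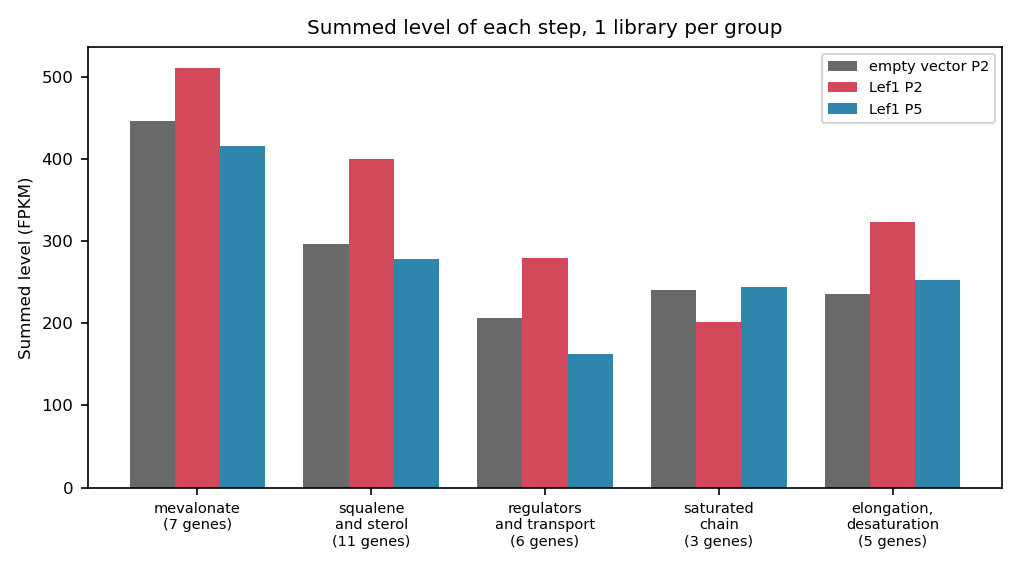
Summed FPKM of the genes of each step in the 3 libraries, with bars from 0 and 1 library per group, so no error bars. The Lef1 P2 bar is the tallest for 4 of the 5 steps and the shortest for saturated chain synthesis, at 202 FPKM against 241 in empty vector P2 and 244 in Lef1 P5.

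The fatty acid branch divided in Lef1 P2. Its 3 genes for making the saturated chain were lower than in the control, and its 5 genes for lengthening and desaturating were higher, except that Scd2 turned sign with median-of-ratios and TMM scaling. Among all genes 57.6% were higher and 42.4% lower, so the counts of 5 and 3 were near the background. Acaca (Entrez 107476), acetyl-CoA carboxylase, which makes the malonyl-CoA used for each chain extension, was at 22.6 FPKM (21.6 to 23.6) in the control, 12.3 FPKM (11.5 to 13.0) in Lef1 P2, with Lef1 P5 at 21.0 FPKM (20.1 to 22.0). Lef1 P2 stands apart as the low library and the other intervals overlap. The ratio was 0.543 (0.503 to 0.587), a log2 difference of -0.83, the lowest of all 32 genes in this comparison, and from -0.68 with a pseudocount of 5 FPKM to -0.98 with median-of-ratios scaling. It passed the 1.5-fold but not the 2-fold call. The span of Acaca overlaps that of Tada2a, which was at 24.8, 23.5 and 20.8 FPKM.

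Fasn, the fatty acid synthase that assembles palmitate, was at 74.3 FPKM (72.6 to 76.1) in the control, 61.9 FPKM (60.3 to 63.5) in Lef1 P2, with Lef1 P5 at 89.0 FPKM (87.1 to 91.0). None of these intervals overlap, and the order was the reverse of that of Srebf2 and Insig1, with Lef1 P2 lowest and Lef1 P5 highest. Its ratio to the control was 0.832 (0.803 to 0.862) in Lef1 P2 and 1.20 (1.16 to 1.24) in Lef1 P5. Acly, the ATP citrate lyase that supplies cytosolic acetyl-CoA to either branch, was at 144, 128 and 134 FPKM, 0.889 (0.856 to 0.923) and 0.934 (0.9 to 0.969) of the control level. Fasn exceeded Acaca 3.29-fold in the control, 5.04-fold in Lef1 P2 and 4.23-fold in Lef1 P5.

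Among the genes that act on finished chains, Scd1 (Entrez 20249), the stearoyl-CoA desaturase, had the largest ratio of all 32 genes in Lef1 P2 against the control. It was at 35.0 FPKM (33.2 to 36.7) in the control, 75.7 FPKM (73.1 to 78.3) in Lef1 P2, with Lef1 P5 at 42.0 FPKM (40.2 to 44.0), with no overlap. Among all genes, 6.49% were called 2-fold higher and 1.82% lower in Lef1 P2 against the control. The 2.16-fold difference of Scd1 at passage 2 (2.04 to 2.30) was the one 2-fold call of the branch against the control, a log2 ratio of 1.09. For Scd1 the call was not reached with median-of-ratios (0.93) or TMM scaling (0.94). Scd2, its paralog, was at 132, 147 and 136 FPKM, and the sign of its small passage 2 difference turned with those 2 scalings. Scd2 was thus at 3.79 times the level of Scd1 in the control (3.58 to 4.01), 1.95 times in Lef1 P2 (1.87 to 2.03) and 3.23 times in Lef1 P5 (3.07 to 3.40). The expected counts of Scd1 and Scd2 were not whole, and nor were those of Acat2. Such counts can arise where reads are divided among similar genes, and the intervals do not cover that division.

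Elovl6, which lengthens palmitate, was at 29.3 FPKM in the control, 45.3 in Lef1 P2 and 33.1 in Lef1 P5, 1.55-fold higher at passage 2 (1.45 to 1.65). Fads1 and Fads2, desaturases of polyunsaturated fatty acid synthesis, were at 20.9 and 18.5 FPKM in the control, 31.5 and 23.6 in Lef1 P2 and 21.1 and 21.0 in Lef1 P5. Fads1 was 1.51-fold higher in Lef1 P2 on the plain scale (1.36 to 1.66), which falls short of 1.5-fold once 1 FPKM is added, and Fads2 1.28-fold (1.08 to 1.52). In Lef1 P5 the ratio of Fads1 to the control was 1.01 (0.903 to 1.12).

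Over all 8 fatty acid genes the median log2 ratio was 0.25 in Lef1 P2 against the control (0.13 above all genes), 0.10 in Lef1 P5 against the control and -0.14 in Lef1 P5 against Lef1 P2. A median says little here, since 3 genes lay at -0.83 to -0.17 and 5 at 0.15 to 1.09 in the passage 2 comparison. At 1.5-fold, 2 of the 8 (Elovl6 and Scd1) were higher and 1 (Acaca) lower in Lef1 P2 against the control, beside 17.5% and 8.03% of all genes, so these counts were near the background. In Lef1 P5 against Lef1 P2 Acaca was higher, as 7.98% of all genes were, and Scd1 lower, as 20% were. None of the 8 passed 1.5-fold in Lef1 P5 against the control, where 4.31% of all genes were higher and 5.95% lower. The counting intervals excluded 1 for all 8 genes in Lef1 P2 against the control, 5 above and 3 below, beside 41% and 27.2% of all genes. The difference between the 3 chain-making and the 5 chain-modifying genes was not tested, since each library is a single sample.

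**Figure D4:**
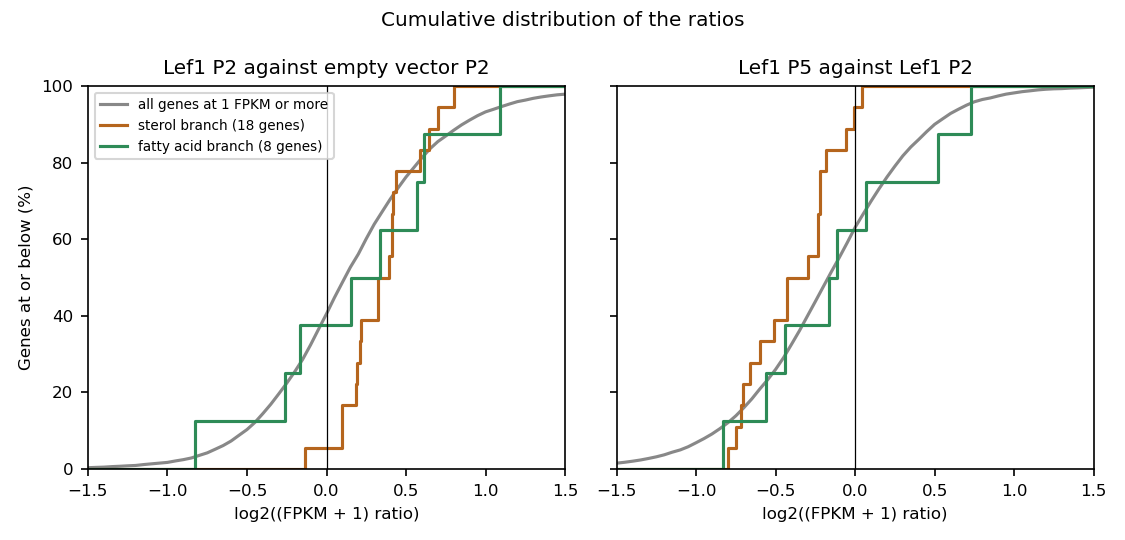
Cumulative share of genes (%) by log2 ratio of FPKM + 1, for all genes at 1 FPKM or more (grey), the 18 sterol enzymes (brown) and the 8 fatty acid genes (green), in Lef1 P2 against empty vector P2 (left) and Lef1 P5 against Lef1 P2 (right). The sterol curve lies right of the grey curve over most of the left panel and left of it over most of the right panel, and the fatty acid curve crosses the grey curve in both.

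A list of 45 other genes of the pathway was read for comparison. In Lef1 P2 against the control, 3 were 2-fold higher and 0 lower of the 39 above the minimums, near the 6.49% and 1.82% of all genes, and the median log2 ratio was 0.21, 0.09 above all genes. Me1, the malic enzyme that supplies NADPH for lipid synthesis, was at 14.2 FPKM (12.9 to 15.6) in the control, 57.6 FPKM (54.9 to 60.4) in Lef1 P2, with Lef1 P5 at 14.4 FPKM (13.1 to 15.8). The 4.05-fold difference at passage 2 (3.64 to 4.52) exceeded that of every one of the 32 genes, and Lef1 P5 was within counting error of the control. Soat1, which esterifies cholesterol for storage, was at 9.24, 22.8 and 15.7 FPKM (2.47-fold in Lef1 P2), with counts that were not whole. Npc1, which exports cholesterol from lysosomes, was at 5.82, 13.9 and 6.25 FPKM (2.39-fold in Lef1 P2, 2.07 to 2.76).

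Lrp1, an endocytic lipoprotein receptor, was at 14.7 FPKM in the control, 22.8 in Lef1 P2 and 10.1 in Lef1 P5. Like Me1 and Npc1, it was called lower in Lef1 P5 against Lef1 P2 (0.442, 0.415 to 0.471). In that comparison 3 of the 39 genes above the minimums were called lower and 0 higher, near the 6.86% and 1.88% of all genes. Abcg1, a sterol efflux transporter and target of the liver X receptors, was at 6.66, 3.53 and 2.53 FPKM. In Lef1 P5 it was at 0.38 of the control level (0.31 to 0.464). It was the 1 gene called in that comparison of the 36 above the minimums, beside 1.28% of all genes lower and 1.4% higher. Abca1, another efflux transporter, named after its values were seen, was at 4.19, 6.07 and 7.60 FPKM, 1.81-fold the control level in Lef1 P5. The elongation, activation and esterification group (21 genes) had a median of 0.20 in Lef1 P2 against the control. The precursor group (8 genes) had a median of 0.37 and the transport, storage and sensing group (16 genes) 0.48 in the same comparison.

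**Figure D5:**
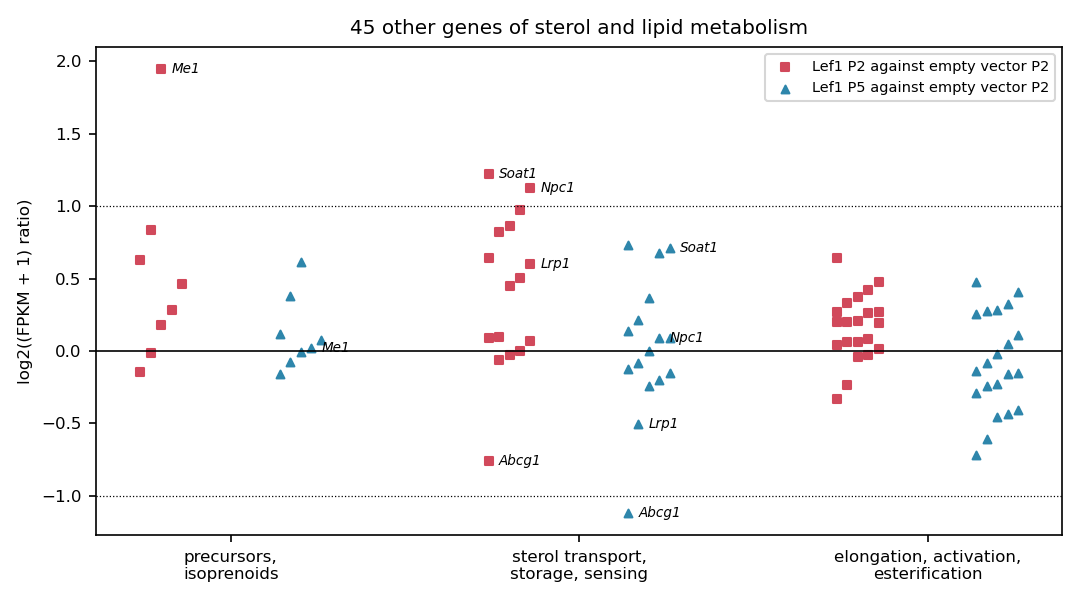
log2 ratio of FPKM + 1 to empty vector P2 for the 45 other genes in 3 groups, with Lef1 P2 as squares and Lef1 P5 as triangles, and dotted lines at 2-fold. Me1, Soat1 and Npc1 lie above the upper line in Lef1 P2, and Abcg1 lies below the lower line in Lef1 P5.

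The summed levels of cell type markers differed between the libraries as well. The 7 pluripotency markers were all present, and summed to 2176 FPKM in the control, 1627 in Lef1 P2 and 2090 in Lef1 P5, with Pou5f1 at 1135, 704 and 1062 FPKM. Pou5f1 made up much of that sum, and the list did not share one direction in Lef1 P2. Sox2, at 254, 192 and 205 FPKM, was lower there too. Nanog, at 160, 167 and 176 FPKM, was within counting error of the control in Lef1 P2 (1.05-fold, 0.997 to 1.10). Of the 7, only Tfcp2l1, at 56.6, 84.5 and 66.9 FPKM, was higher in Lef1 P2 beyond counting error. The 9 markers of primitive and parietal endoderm summed to 167, 1637 and 446 FPKM, with Gata4 at 2.82, 66.0 and 16.3 FPKM. All 9 were at 1 FPKM or more in the Lef1 libraries and 7 in the control. Visceral endoderm markers summed to 5.22, 49.7 and 8.45 FPKM, nearly all of it from Amn (2.33, 16.5 and 5.62 FPKM) and Cubn (2.68, 33.0 and 2.53 FPKM), with Ttr and Afp not listed in any library. Fibroblast and feeder markers summed to 18.5, 12.8 and 8.14 FPKM, most of it from Thy1 (15.7, 9.54 and 7.21 FPKM), which was called 2-fold lower in Lef1 P5 against the control, and with Col1a1 and Col1a2 at 1.28 FPKM or less. Pdgfrb of the same list, which stayed below the minimums, was higher in Lef1 P2 than in the control (1.83-fold, 1.34 to 2.52), at 1.29, 2.36 and 0.5 FPKM. Tfcp2l1, Amn, Cubn, Thy1, Pdgfrb and Tfap2c are named because they carry or oppose their list's sum, after their values were seen. Neural markers summed to 3.35, 6.61 and 4.28 FPKM, most of it from Nes (2.20, 5.50 and 3.77 FPKM), which was called 2-fold higher in Lef1 P2 against the control. Sox1 ran the other way (1.06, 0.88 and 0.43 FPKM). Trophoblast markers summed to 14.1, 15.7 and 11.4 FPKM, most of it from Tfap2c (12.4, 12.3 and 9.96 FPKM). Cdx2 and Eomes stayed under 3 FPKM in every library, and Elf5 was not listed in any. The 9 markers of primitive and parietal endoderm were each highest in Lef1 P2, as were 16 of 18 sterol enzymes, beside 49.7% of all genes. In Lef1 P5 all 9 were still above the control, as was Amn, while Cubn was not. There 12 of 18 sterol enzymes were below the control, where 52.6% of all genes were lower, and so were Srebf2, Insig1 and Scap. The part of the endoderm markers in the results was not tested. In bulk RNA, fewer cells of a type and less RNA per cell cannot be told apart.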

How the data were processed

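RNA-seq libraries of 3 cultures of mouse 46C embryonic stem cells were read, 1 per group and with no replicate. The submitters' processing notes name Bowtie 0.12.2 as a tool and mm8 as the genome build. No source used here names the counting program or says if strand was used. Per the file headers, the authors deposited an expected count, a length and an FPKM value per Entrez gene. A gene missing from a table was taken as 0. Symbols came from the RefSeq table of GRCm38.p6, which matched 17951 of 17997 numbers. The FPKM values were used as deposited, with a pseudocount of 1 FPKM. Level intervals are exact Poisson and ratio intervals exact conditional binomial, both at 95% and from rounded expected counts. Spans of overlapping genes and promoters come from the RefSeq tables, whose build differs from mm8, and promoter coordinates are those of GRCm38.p6. The genes, lists and call rules were chosen with earlier results of these data known. Named were all 32 members, the genes of the other list called at 2-fold (at most 4 per comparison), at most 3 genes of each marker list, and Lef1. Overlapping neighbours of members, Abca1 and the markers Tfcp2l1, Amn, Cubn, Thy1, Pdgfrb and Tfap2c were added after their values were seen. Python 3.11.15, scipy 1.17.1 and edgeR 4.0.16 (TMM factors only) were used. The call rule was tested on simulated data with counting error only, which cannot show how it behaves under the spread between cultures. The alternatives were other pseudocounts, median-of-ratios, TMM and quantile scaling, CPM, other minimums and other fold thresholds.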

Additional observations from a re-analysis of the deposited data

How the results depend on the processing

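The sterol medians kept their sign under every scaling and pseudocount tried, from 0.20 to 0.38 in Lef1 P2 against the empty-vector control and from -0.37 to -0.16 in Lef1 P5 against Lef1 P2. For the 8 fatty acid genes, the median of 0.25 in Lef1 P2 against the control became 0.088 with median-of-ratios scaling, 0.092 with TMM scaling and 0.085 with only members of whole counts (chosen after seeing the data). Their median of -0.14 in Lef1 P5 against Lef1 P2 became 0.059 and 0.037 with those scalings, so its sign turned. Scd1, the 1 fatty acid gene called higher in Lef1 P2 against the control, left 0 calls with median-of-ratios scaling, TMM scaling or a 4-fold threshold. With a 1.5-fold threshold, 4 sterol and 2 fatty acid genes were called higher and 1 fatty acid gene lower in that comparison, 1 sterol gene was higher in Lef1 P5 against the control, and in Lef1 P5 against Lef1 P2 6 sterol genes were lower and 1 fatty acid gene was called each way. Among all genes that threshold called 1864 higher and 855 lower in Lef1 P2 against the control (17.5% and 8.03%), 436 and 602 in Lef1 P5 against the control (4.31% and 5.95%), and 845 and 2116 in Lef1 P5 against Lef1 P2 (7.98% and 20%). The cause of these shifts was not tested. Among all genes, the 691 higher and 194 lower calls in Lef1 P2 against the control became 502 and 304 (median-of-ratios scaling), 462 and 314 (quantile), 509 and 305 (TMM), 1225 and 281 with CPM, 245 and 83 with a pseudocount of 5 FPKM, 357 and 121 at a minimum of 10 FPKM, and 106 and 9 at 4-fold. In Lef1 P5 against the control, the 142 higher and 130 lower calls became 269 and 276 with CPM, 192 and 222 with a pseudocount of 0.1 FPKM, 42 and 25 with a pseudocount of 5 FPKM, 67 and 49 at a minimum of 10 FPKM, and 17 and 7 at 4-fold. In Lef1 P5 against Lef1 P2, the 199 higher and 727 lower calls became 380 and 450 (median-of-ratios scaling), 282 and 410 (quantile), 362 and 473 (TMM), 272 and 1275 with CPM, 101 and 180 with a pseudocount of 5 FPKM, 145 and 358 at a minimum of 10 FPKM, and 5 and 42 at 4-fold. Counting error is smallest for genes with many reads, and the spread between cultures is not known with 1 library per group. No paired analysis was possible because each group has 1 library.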
